A study of Mus musculus with 13 samples.

Results

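Lipopolysaccharide (LPS) is sensed at the cell surface by a small protein complex, and 10 genes of that complex and of the Toll-like receptor pathway behind it were followed here in isolated mouse brain vessels. They were *Tlr4*, *Ly96*, *Cd14* and *Lbp*, which encode the LPS recognition proteins, the receptors *Tlr2* and *Tlr3*, the adaptors *Myd88* and *Ticam1*, and the kinase family members *Irak2* and *Irak3*. The genes were chosen by symbol and each matched 1 of the 47643 genes in the count table. RNA was sequenced from 13 male CD1 mice aged 8 to 10 weeks. The 4 sham-vehicle mice received no LPS. The 5 LPS-vehicle mice received 3 mg/kg of LPS from *Salmonella enterica* serotype Typhimurium into the peritoneum at 0, 6 and 24 h. The 4 LPS-CPD-4645 mice received the same LPS and, under the skin, 10 mg/kg of CPD-4645, which the labels place at 30 min after each LPS dose, though the study's text also gives a longer delay. CPD-4645 is a covalent inhibitor of monoacylglycerol lipase (MAGL), the enzyme that degrades the endocannabinoid 2-arachidonoylglycerol. Per the study's text it also acts in part on the hydrolases ABHD6 and FAAH in brain. Brains were taken at 28 h and were not perfused, so cells still inside the vessels were part of the preparation.

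Total counts per library lay between 7813559 and 55133373. The shallowest libraries came from mouse 3 of the LPS-vehicle group and mouse 1 of the LPS-CPD-4645 group. All 8 endothelial markers passed the filter on low counts, and their summed level in CPM, the count scaled to the library total, was 285 to 477 without LPS, 319 to 683 with LPS alone and 352 to 508 with LPS and CPD-4645. The preparation was not vessels alone: 6 neuronal markers summed to between 7440 and 10100 CPM over all mice, and 6 oligodendrocyte markers to between 2920 and 6320 CPM. In such bulk RNA, fewer cells of a type and less RNA per cell cannot be told apart.

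LPS released from bacteria is bound by LBP, a protein of the acute-phase response, and handed to CD14, an anchored coreceptor, which passes it to the receptor TLR4 with its partner MD-2, the product of *Ly96*. TLR4 then signals through MYD88, which recruits IRAK kinases and drives NF-κB, and through TRIF, the product of *Ticam1*, which leads to interferon regulatory factor 3 and interferon genes. In the brain, perivascular macrophages, microglia and endothelial cells are known to respond to LPS by these receptors, and *Irak3* encodes IRAK-M, which lacks kinase activity and restrains the pathway.

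Promoter stretches are shown for *Tlr2*, *Myd88* and *Irak3*, since these genes rose after LPS and had an entry in the RefSeq windows used here. Each window spans 250 bases before a start site to 50 after it on GRCm38.p6, and 7 windows matched 6 of the 10 genes, *Irak3* having 2. Both strands were searched for the κB motif of NF-κB and for GAAANNGAA, the core of interferon-stimulated response elements. Among 32851 windows of the same length, 8.46% held the κB motif and 8.56% held GAAANNGAA. Stretches inside annotated exons were left out, capitals mark a match, and every sequence reads along the strand of its gene.
Tlr2, κB motif, chr3:83841768-83841858: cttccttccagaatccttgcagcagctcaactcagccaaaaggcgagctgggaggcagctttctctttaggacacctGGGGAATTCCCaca
Myd88, GAAANNGAA, chr9:119340042-119340268: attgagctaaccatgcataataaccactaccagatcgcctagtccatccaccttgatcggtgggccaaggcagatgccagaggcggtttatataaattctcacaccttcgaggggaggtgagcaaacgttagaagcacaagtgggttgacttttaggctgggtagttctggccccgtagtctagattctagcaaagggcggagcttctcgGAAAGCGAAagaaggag
Irak3, GAAANNGAA on the opposite strand, chr10:120202131-120202380: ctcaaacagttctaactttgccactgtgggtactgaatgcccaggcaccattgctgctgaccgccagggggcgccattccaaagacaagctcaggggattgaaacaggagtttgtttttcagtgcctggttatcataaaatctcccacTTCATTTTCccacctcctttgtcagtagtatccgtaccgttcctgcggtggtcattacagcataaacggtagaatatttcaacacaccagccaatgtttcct
The *Tlr2* window held the κB motif at 2 places, starting 173 and 8 bases before the RefSeq start site, and the place at 8 bases lies in an annotated exon and is not shown. GAAANNGAA started 40 bases before the start site of *Myd88* and 102 bases before that of *Irak3*. *Tlr3* held 1 κB motif, 211 bases before its start site, in a stretch that is annotated as exon. The windows of *Irak2* and *Ticam1* and the other window of *Irak3* held neither sequence. These matches are descriptions of the letters in a window, and no binding was measured.

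The genes are spread over the genome (GRCm38, GENCODE M21). *Tlr4* lies at chr4:66827584-66930284 and *Ly96* at chr1:16688051-16709611, both on the plus strand. *Cd14* is on the minus strand at chr18:36725067-36726798, and *Lbp* is on the plus strand at chr2:158306493-158332852. The receptors *Tlr2* (chr3:83836272-83841767) and *Tlr3* (chr8:45395665-45411080) are on the minus strand. On the same strand are *Myd88* (chr9:119335934-119341411), *Ticam1* (chr17:56269319-56276786) and *Irak3* (chr10:120141648-120202130), while *Irak2* (chr6:113638467-113695026) is on the plus strand. Exons of *Tlr3*, *Irak2* and *Irak3* overlap those of *Gm45542*, *Gm43963* and *Gm47009* on the other strand, and since the strand used for counting is not stated, reads of these pairs could not be told apart.

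Per kilobase of exon, *Irak2* had the highest level of the 10 genes in sham-vehicle mice, at 5.37 ± 0.502 CPM per kb (SD, n = 4), and did not overlap the next gene, *Myd88*, at 2.88 ± 0.361. *Lbp* (2.42 ± 0.662), *Tlr3* (2.17 ± 0.388), *Cd14* (1.79 ± 0.824) and *Ticam1* (1.62 ± 0.284) followed, and each overlapped the gene before it in this order. *Tlr2* (0.599 ± 0.236), *Ly96* (0.558 ± 0.333) and *Irak3* (0.459 ± 0.0473) formed a lower group whose neighbours overlapped. *Tlr4* itself, the receptor for LPS, was the lowest at 0.104 ± 0.0633 CPM per kb, below *Irak3* in every sham-vehicle mouse. After LPS the order changed at the top and *Cd14* led with 48.7 ± 19.4 CPM per kb (n = 5), above every value of the next gene, *Myd88* (9.78 ± 2.44). *Tlr4* stayed lowest, at 0.236 ± 0.108 CPM per kb with LPS alone and 0.107 ± 0.013 with CPD-4645 added, and did not overlap the gene above it, *Ly96*, in either group.

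The first comparison was of LPS-vehicle with sham-vehicle mice and asked how the LPS receptor genes respond to LPS itself. *Cd14*, *Tlr2*, *Irak3*, *Myd88* and *Lbp* rose by at least 2-fold with an edgeR adjusted p of at most 0.05. The count was 5 of 10, while 4.68% of the 17285 genes tested passed as higher. The 10 genes were chosen with earlier results of these data known, so such shares, here and below, are no independent test. All 10 log2 fold changes were above 0, with a median of 1.23, whereas the median of all genes tested was -0.00. By adjusted p alone 8 genes were higher (11.1% of all genes), and for 9 the LPS-vehicle values did not overlap those of the sham-vehicle mice and were higher (9.68% of all genes), the exception being *Tlr4*.

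**Figure D1:**
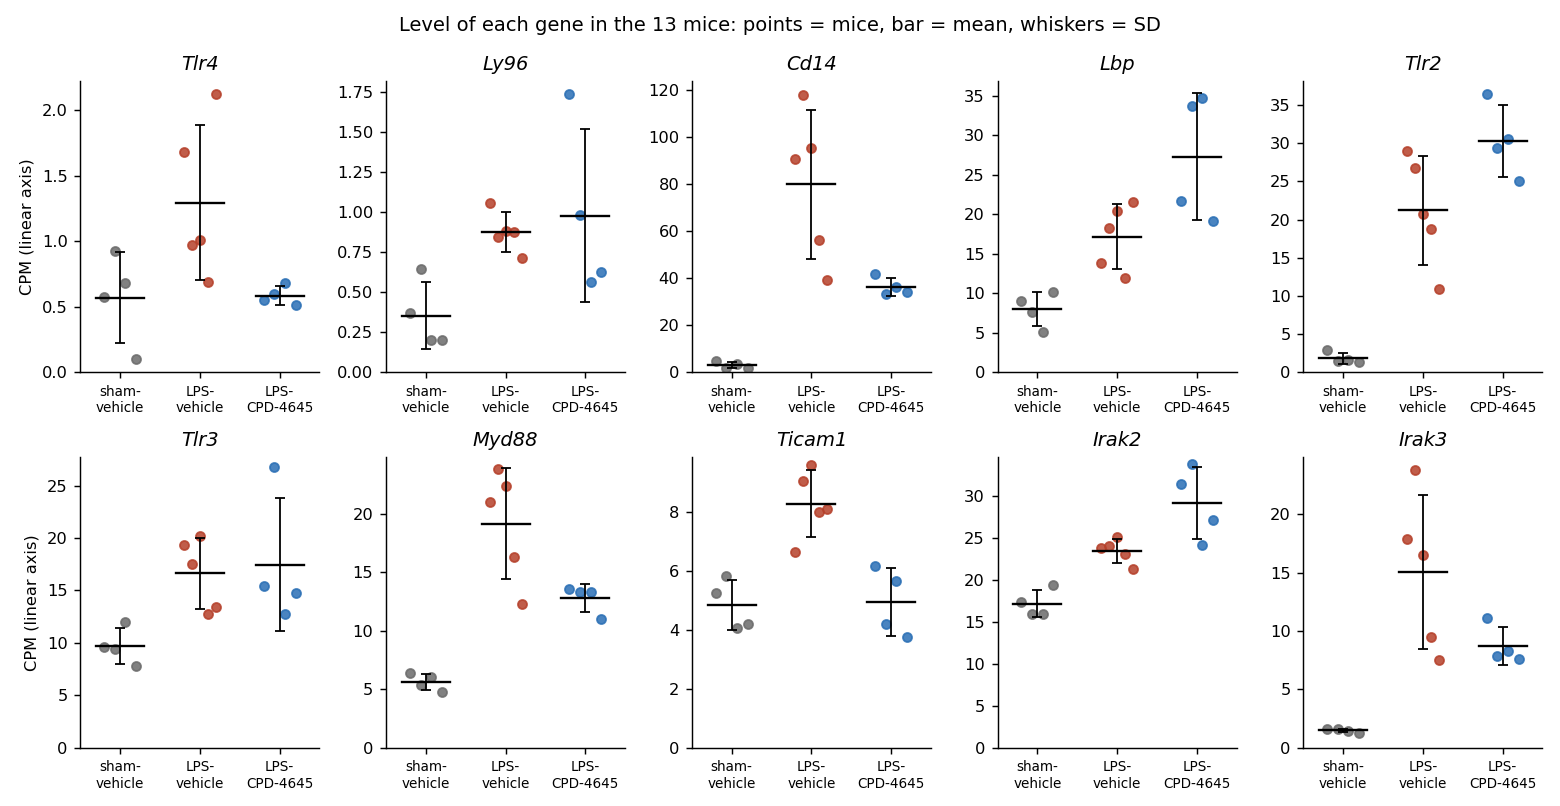
Level of each of the 10 genes in CPM (vertical axis, linear, starting at 0) in the 4 sham-vehicle, 5 LPS-vehicle and 4 LPS-CPD-4645 mice. Points are mice, bars are means and whiskers are SD. *Cd14* was highest in LPS-vehicle mice (39.2 to 118 CPM), while *Ly96*, *Lbp*, *Tlr2*, *Tlr3* and *Irak2* had their highest means under CPD-4645.

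Among the recognition genes, *Cd14* moved most. Its level was 4.71, 1.89, 3.31 and 1.88 CPM in the sham-vehicle mice and 90.8, 118, 95.3, 56.3 and 39.2 CPM in the LPS-vehicle mice. The groups were far apart, and LPS-vehicle mouse 5 had the lowest value of its group. *Cd14* thus rose from 2.94 ± 1.35 (SD, n = 4) to 80.0 ± 31.8 CPM (n = 5), a 26.2-fold change (log2 4.71, SE 0.32, edgeR adjusted p = 1.93e-08).

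*Lbp*, best known as a liver product, stood at 9.04, 7.64, 5.10 and 10.2 CPM without LPS. With LPS it stood at 13.8, 18.2, 20.4, 11.9 and 21.5 CPM. Every LPS-vehicle mouse was above every sham-vehicle mouse, by a smaller step than for *Cd14*. The rise was 2.14-fold (log2 1.09, SE 0.23, edgeR adjusted p = 0.00225) and fell under 2-fold without sham-vehicle mouse 3 (log2 0.93) or without LPS-vehicle mouse 5 (log2 0.99).

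The receptor pair itself was scarce. *Tlr4* had 0.570, 0.925, 0.677 and 0.0988 CPM in sham-vehicle mice, from 20, 23, 17 and 2 counts. In LPS-vehicle mice it had 1.68, 0.969, 1.01, 0.685 and 2.12 CPM, from 49, 54, 8, 25 and 71 counts. The groups overlapped, and the low value of sham-vehicle mouse 4 rested on those 2 counts. The log2 fold change of *Tlr4* was 1.17 (SE 0.50) and did not pass (edgeR adjusted p = 0.113).

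*Ly96*, whose protein MD-2 holds the lipid part of LPS, had 0.371, 0.644, 0.199 and 0.198 CPM in sham-vehicle mice. In LPS-vehicle mice it had 1.06, 0.843, 0.882, 0.876 and 0.715 CPM. The groups did not overlap, although counts were only 4 to 16 in the first group and 7 to 47 in the second. The log2 fold change of *Ly96* was 1.29 (SE 0.49) with an edgeR adjusted p of 0.0737, and it passed without sham-vehicle mouse 2 (log2 1.72). With standard errors of 0.50 and 0.49, a 2-fold change of *Tlr4* or *Ly96* could easily be missed. The parts of read depth and of spread between mice in these errors were not tested.

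Of the other receptors, *Tlr2*, which detects bacterial lipoproteins together with TLR1 or TLR6, was at 2.85, 1.49, 1.59 and 1.28 CPM without LPS. After LPS it was at 29.0, 26.8, 20.7, 18.7 and 10.9 CPM. No mouse of one group came near the other, and LPS-vehicle mouse 5 was again the lowest of its group. *Tlr2* rose 11.4-fold (log2 3.51, SE 0.28, edgeR adjusted p = 9.91e-08).

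*Tlr3*, a receptor for double-stranded RNA inside endosomes that signals through TRIF, had 9.61, 9.45, 12 and 7.8 CPM in sham-vehicle mice. Its values in LPS-vehicle mice were 19.3, 17.5, 20.2, 12.8 and 13.4 CPM. The groups did not overlap, but the difference was small beside that of *Tlr2*. Its log2 fold change was 0.76 (SE 0.21, edgeR adjusted p = 0.0143), under the 2-fold threshold.

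Among the adaptors and kinases, *Myd88* and *Irak3* rose, while *Ticam1* and *Irak2* stayed under 2-fold. *Myd88*, the adaptor of nearly all Toll-like receptors and of the interleukin-1 receptor, was at 6.36, 5.35, 6.05 and 4.79 CPM in sham-vehicle mice. It was at 21, 23.8, 22.4, 16.3 and 12.3 CPM in LPS-vehicle mice. The groups were well apart, and *Myd88* rose 3.37-fold (log2 1.75, SE 0.18, edgeR adjusted p = 1.82e-06). *Irak3* was at 1.63, 1.57, 1.43 and 1.28 CPM in sham-vehicle mice.

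In LPS-vehicle mice *Irak3* reached 17.9, 23.8, 16.5, 9.45 and 7.51 CPM. All 5 mice were far above the sham-vehicle mice, and mice 4 and 5 were the lowest. *Irak3* rose 10.1-fold (log2 3.33, SE 0.30, edgeR adjusted p = 3.88e-07).

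*Ticam1* was at 5.25, 5.83, 4.06 and 4.20 CPM without LPS and at 6.63, 9.06, 9.58, 8.00 and 8.11 CPM with it. The groups did not overlap, with a log2 fold change of 0.77 (SE 0.19, edgeR adjusted p = 0.0086). *Irak2*, whose product belongs to the kinase family and joins the complex that forms on MYD88, was at 17.4, 16.0, 15.9 and 19.4 CPM without LPS. It was at 23.8, 24.1, 25.1, 23.1 and 21.3 CPM with it, again without overlap. Its log2 fold change was 0.45 (SE 0.11, edgeR adjusted p = 0.00854), so neither *Ticam1* nor *Irak2* reached 2-fold.

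The mice did not rank alike for all genes. LPS-vehicle mouse 5 was lowest of its group for 6 of the 10 genes (*Ly96*, *Cd14*, *Tlr2*, *Myd88*, *Irak2* and *Irak3*) and highest for 2 (*Tlr4* and *Lbp*). Sham-vehicle mouse 4 was lowest for 7 genes, and LPS-CPD-4645 mouse 4 for 6. In LPS-vehicle mouse 5 the summed neutrophil markers, at 60.5 CPM, were the lowest of the group, while the summed microglial markers (308 CPM) and endothelial markers (683 CPM) were the highest.

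Markers of blood cells moved with LPS as well. The 8 neutrophil markers summed to 1.23 to 5.39 CPM without LPS, 60.5 to 271 CPM with LPS alone and 7.3 to 26.8 CPM with LPS and CPD-4645. Of the 7 that were tested, 7 rose after LPS and 7 fell under CPD-4645, and none was at 0 in all mice of a group. The 8 monocyte and macrophage markers summed to 6.22 to 7.32, 11.4 to 25.1 and 5.61 to 10.6 CPM in the same order of groups. Of their 6 tested genes, 4 rose after LPS and 2 fell under CPD-4645. The 8 microglial markers summed to 227 to 306, 176 to 308 and 157 to 207 CPM. After LPS 2 of them fell, among them *P2ry12*, a receptor of resting microglia (log2 fold change -3.33). *Cd14*, *Tlr2* and *Tlr4* are carried by such cells, and the part of cell numbers in the changes of the 10 genes was not tested.

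**Figure D2:**
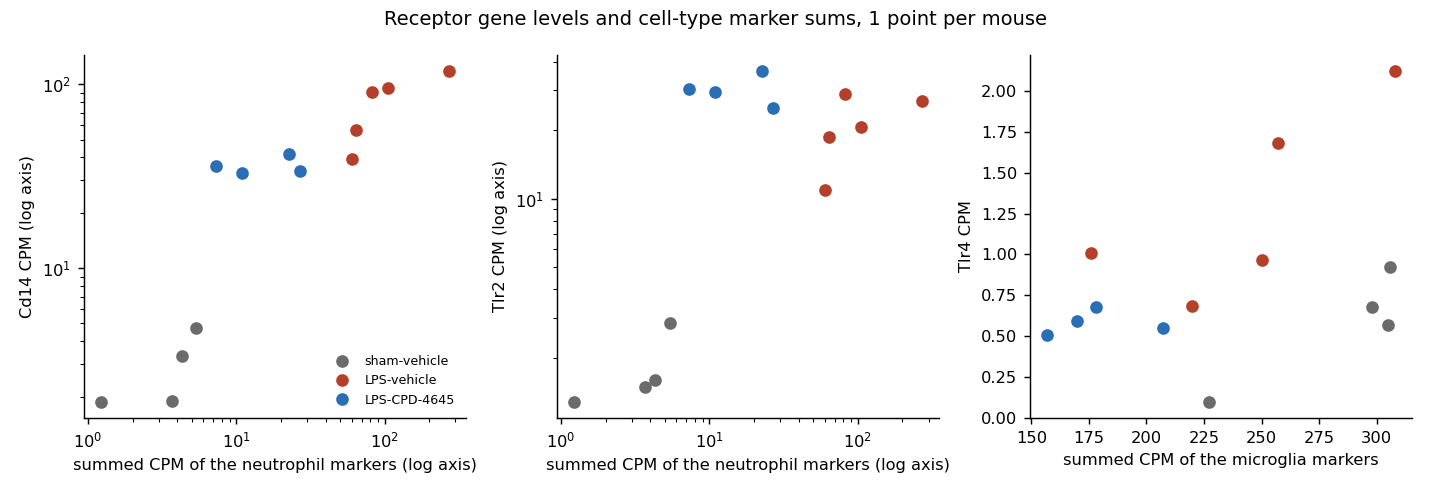
Level of *Cd14* (left), *Tlr2* (middle) and *Tlr4* (right) in CPM against the summed CPM of neutrophil or microglial markers, 1 point per mouse, with log axes on the left and in the middle and linear axes on the right. Under CPD-4645 the neutrophil sum was 7.3 to 26.8 CPM, below every LPS-vehicle mouse, while *Tlr2* remained at 25.0 to 36.4 CPM.

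The second comparison was of LPS-CPD-4645 with LPS-vehicle mice and asked which of these responses differed when CPD-4645 followed each LPS dose. The 10 genes went both ways. *Cd14* alone passed as lower, so 1 of 10 did, where 4.19% of all genes tested passed as lower. None of the 10 passed as higher, where 1.7% of all genes did. By adjusted p alone, 4 genes were lower (*Cd14*, *Myd88*, *Ticam1* and *Irak3*, 16.4% of all genes) and 2 were higher (*Lbp* and *Irak2*, 14.1% of all genes). The median log2 fold change of the 10 was -0.25 and that of all genes -0.02. *Tlr4* and *Ticam1* were lower in every LPS-CPD-4645 mouse than in any LPS-vehicle mouse (12% of all genes), and no member was higher without overlap (11.1% of all genes). This comparison and the first use the same 5 LPS-vehicle mice.

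**Figure D3:**
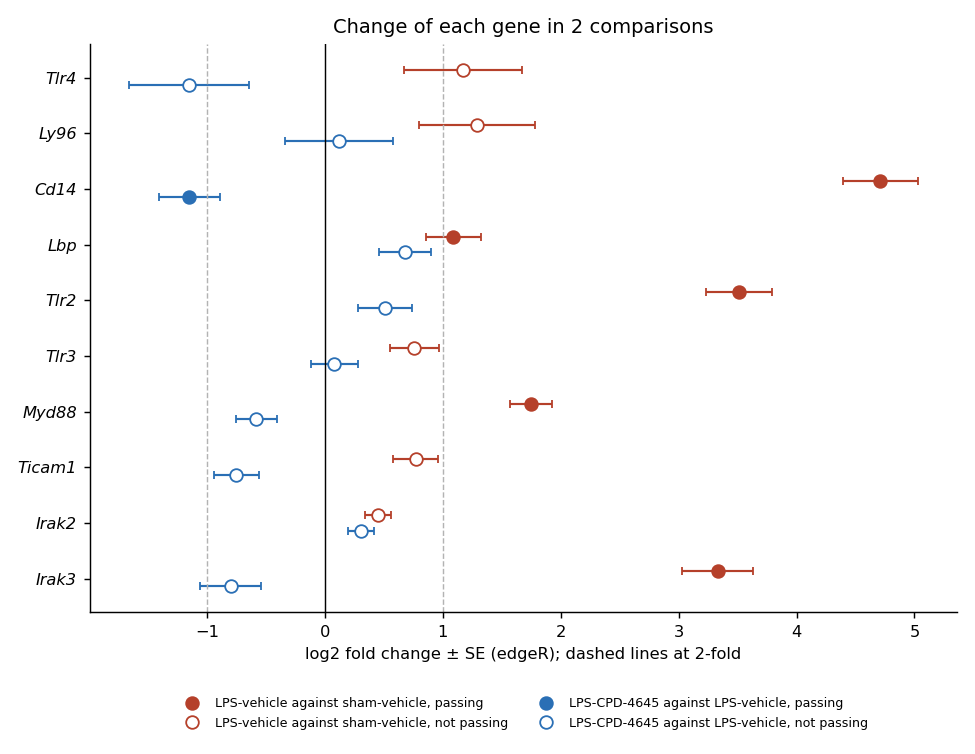
Log2 fold change with its SE from edgeR (horizontal axis) for each of the 10 genes, after LPS (red) and under CPD-4645 given LPS (blue). Filled points passed the threshold of adjusted p and 2-fold: 5 genes after LPS and *Cd14* under CPD-4645, at -1.15.

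*Cd14* stood at 41.7, 33.0, 36.0 and 33.9 CPM in the LPS-CPD-4645 mice, a narrow range. The other 4 LPS-vehicle mice were above all of these, while mouse 5, at 39.2 CPM, was inside the range. The mean was 36.2 ± 3.89 CPM (SD, n = 4), 2.21-fold lower than with LPS alone (log2 -1.15, SE 0.26, edgeR adjusted p = 0.00298). Without LPS-vehicle mouse 2, the one with the highest *Cd14* (118 CPM) and the highest neutrophil sum (271 CPM), the log2 fold change was -0.96 and the 2-fold threshold was missed.

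*Tlr2* did not follow *Cd14*. It was at 36.4, 29.4, 30.5 and 25.0 CPM in the LPS-CPD-4645 mice, within or above the range of the LPS-vehicle mice. Its log2 fold change was 0.51 (SE 0.23, edgeR adjusted p = 0.103). *Lbp* was at 21.7, 33.7, 34.7 and 19.1 CPM, with all but mouse 4 above every LPS-vehicle mouse. Its mean was 17.1 ± 4.18 CPM with LPS alone and 27.3 ± 8.07 CPM here, which gave a log2 fold change of 0.68 (SE 0.22, edgeR adjusted p = 0.0245) that was under 2-fold.

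*Tlr4* was at 0.553, 0.595, 0.678 and 0.510 CPM under CPD-4645, from 7, 17, 18 and 13 counts. These values were close together, and all lay under the lowest LPS-vehicle mouse (0.685 CPM). The log2 fold change of *Tlr4* was -1.15 (SE 0.51), but it did not pass (edgeR adjusted p = 0.0969). Beside it, the microglial sum of the LPS-CPD-4645 mice, at 157 to 207 CPM, covered the lower part of the LPS-vehicle range and reached below it. *Ly96* was at 1.74, 0.979, 0.565 and 0.628 CPM, spread across the LPS-vehicle range on both sides. Its log2 fold change was 0.12 (SE 0.46, edgeR adjusted p = 0.869).

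*Tlr3* was at 15.4, 26.8, 12.8 and 14.8 CPM, where mouse 2 stood above all LPS-vehicle mice and the others within their range or at its lower end. The log2 fold change was 0.08 (SE 0.20, edgeR adjusted p = 0.786).

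Of the adaptors, *Myd88* was at 13.6, 13.3, 13.3 and 11 CPM under CPD-4645, and LPS-vehicle mouse 5 (12.3 CPM) lay among these values. Its log2 fold change was -0.58 (SE 0.17, edgeR adjusted p = 0.0175). *Ticam1* was at 6.17, 4.20, 5.65 and 3.77 CPM, all under the lowest LPS-vehicle mouse (6.63 CPM) and over a span that includes that of the sham-vehicle mice. It changed by -0.75 on the log2 scale (SE 0.19, edgeR adjusted p = 0.00739), which was 1.68-fold lower.

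The IRAK genes went in opposite directions. *Irak3*, the restraining member, was at 11.1, 7.83, 8.32 and 7.57 CPM under CPD-4645, within the lower part of the LPS-vehicle range. Its log2 fold change was -0.80 (SE 0.26, edgeR adjusted p = 0.0285). *Irak2* was at 31.5, 33.8, 24.2 and 27.2 CPM, with all mice but mouse 3 above the LPS-vehicle range. The log2 fold change of *Irak2* was 0.31 (SE 0.11, edgeR adjusted p = 0.0395), so both were under 2-fold.

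The LPS-CPD-4645 mice were also compared with the sham-vehicle mice, to ask how far LPS and inhibitor together lay from no challenge. The genes that were higher at the 2-fold threshold numbered 6 of 10, where 6.11% of all genes passed: *Tlr2*, *Cd14*, *Irak3*, *Lbp*, *Ly96* and *Myd88*. By adjusted p alone 8 were higher (19.5% of all genes), and 7 were higher without overlap (18.7% of all genes). *Tlr2* was 16.3-fold higher (log2 4.03, SE 0.29, edgeR adjusted p = 2.82e-08), with 25.0 CPM in the lowest LPS-CPD-4645 mouse and 2.85 CPM in the highest sham-vehicle mouse. *Cd14* was 11.8-fold higher (log2 3.57, SE 0.32, edgeR adjusted p = 2.45e-07), without overlap.

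*Irak3* was 5.8-fold higher (log2 2.54, SE 0.31, edgeR adjusted p = 5.75e-06) and *Lbp* 3.43-fold higher (log2 1.78, SE 0.24, edgeR adjusted p = 1.8e-05). *Myd88* was 2.26-fold higher (log2 1.18, SE 0.19, edgeR adjusted p = 9.31e-05). *Ly96* was 2.65-fold higher (log2 1.41, SE 0.51, edgeR adjusted p = 0.0375), but its groups overlapped and the call was lost without any one of sham-vehicle mice 1, 3 or 4 or LPS-CPD-4645 mice 1 or 2.

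In contrast, *Tlr4* (log2 0.03, SE 0.54, edgeR adjusted p = 0.974) and *Ticam1* (log2 0.02, SE 0.20, edgeR adjusted p = 0.953) had group means near those without LPS. *Tlr4* was at 0.584 ± 0.0713 CPM under CPD-4645 (SD, n = 4) and at 0.568 ± 0.346 CPM in sham-vehicle mice. *Ticam1* was at 4.94 ± 1.14 and 4.84 ± 0.85 CPM. *Irak2* (log2 0.77, edgeR adjusted p = 6.87e-05) and *Tlr3* (log2 0.85, edgeR adjusted p = 0.00496) were higher by less than 2-fold.

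To ask directly whether genes of the pathway moved unequally, log2 ratios of 2 genes within a mouse were compared between groups. The scaling factor of a library cancels in such a ratio, but the prior count of 2 in each log2 CPM value moves ratios over *Tlr4*, whose libraries held as few as 2 counts. Such tests were run for 6 ratios in 2 comparisons by exact permutation, two-sided, with adjustment over the 12 tests. The smallest possible p was 0.00794, so no ratio could pass alone and a call needed several small p-values together. The tests are not independent, since ratios share *Tlr4* and the comparisons share the LPS-vehicle mice. After LPS, *Cd14* over *Tlr4* went from 2.39 ± 1.09 to 5.88 ± 1.04 (exact p = 0.0159, adjusted 0.0381). The *Tlr2* over *Tlr4* ratio went from 1.74 ± 1.05 to 3.99 ± 0.97 with overlap (exact p = 0.0238, adjusted 0.0476). Both calls depended on the prior count. With no prior count, an alternative added after the values were seen, *Cd14* over *Tlr4* overlapped between the groups, at up to 4.25 in sham-vehicle mice and from 4.21 in LPS-vehicle mice, and the difference of 3.31 missed the threshold (exact p = 0.0238, adjusted 0.0571). *Tlr2* over *Tlr4* missed it with a prior count of 0.5 (exact p = 0.0317, adjusted 0.0635) and with none (exact p = 0.0397, adjusted 0.068).

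*Irak3* over *Irak2* went from -3.48 ± 0.25 to -0.76 ± 0.62 (exact p = 0.00794, the smallest possible, adjusted 0.0381). The ratio was higher in all 5 LPS-vehicle mice than in any sham-vehicle mouse. *Ticam1* over *Myd88* fell from -0.23 ± 0.28 to -1.18 ± 0.40 (exact p = 0.0159, adjusted 0.0381). *Ly96* over *Tlr4* (difference 0.03, exact p = 0.96) and *Lbp* over *Tlr4* (difference -0.14, exact p = 0.881) did not pass.

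Under CPD-4645, *Lbp* over *Tlr4* was 2.98, 4.13, 4.25, 3.98 and 3.30 in the LPS-vehicle mice. It was 5.12, 5.67, 5.53 and 5.04 in the LPS-CPD-4645 mice. The groups were separate, with a difference of 1.61 (exact p = 0.00794, adjusted 0.0381). *Tlr2* over *Tlr4* also rose without overlap, from 3.99 ± 0.97 to 5.53 ± 0.23 (exact p = 0.0159, adjusted 0.0381).

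*Cd14* over *Tlr4* differed by -0.09 (exact p = 0.913), *Ticam1* over *Myd88* by -0.21 (exact p = 0.429) and *Ly96* over *Tlr4* by 0.98 (exact p = 0.0794, adjusted 0.119). *Irak3* over *Irak2* was lower without overlap, by a difference of -0.98, and missed the adjusted threshold (exact p = 0.0397, adjusted 0.068). No ratio passed in the first comparison without sham-vehicle mouse 1 or 2 or LPS-vehicle mouse 1, 2, 3 or 4, and none in the second without LPS-vehicle mouse 1, 2, 3 or 4 or any LPS-CPD-4645 mouse. The smallest possible p is then 0.0179 or 0.0286 in place of 0.00794.

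Another ratio, *Cd14* over *Tlr2*, was added after the values were seen. It was 0.33 to 1.02 in sham-vehicle mice, 1.59 to 2.20 in LPS-vehicle mice and 0.17 to 0.44 in LPS-CPD-4645 mice. The LPS-vehicle group overlapped neither of the others. The ratio rose by 1.24 with LPS (exact p = 0.00794) and was lower by 1.62, or 3.08-fold, under CPD-4645 (exact p = 0.00794). These p-values are the smallest possible and belong to a ratio picked for its pattern.

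**Figure D4:**
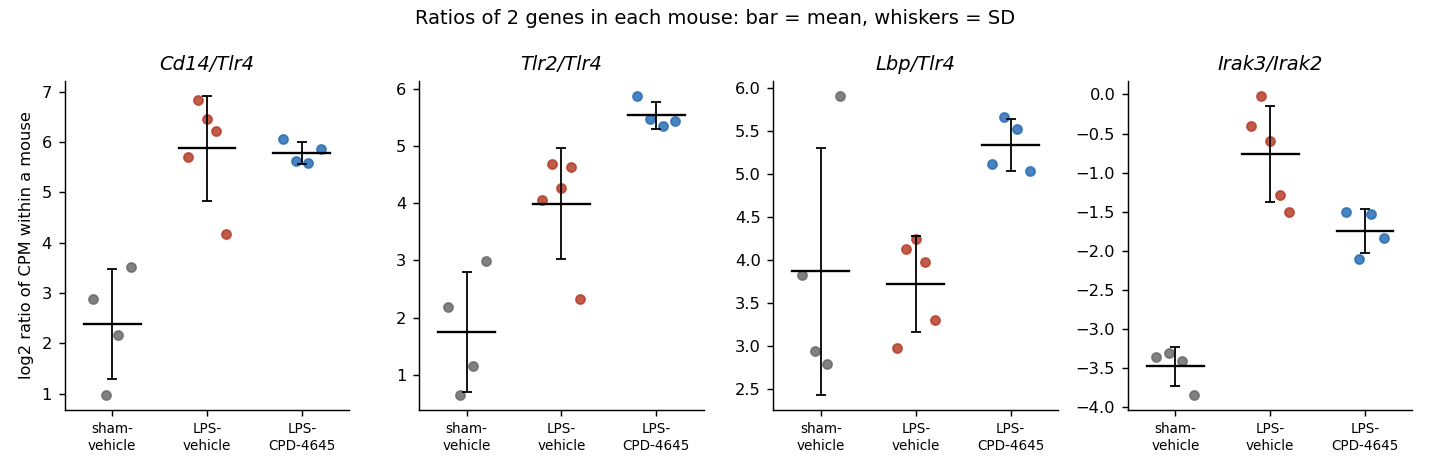
Log2 ratio of CPM of 2 genes within each mouse, with a prior count of 2 (vertical axis), for 4 of the 6 ratios tested, with points for mice, bars for means and whiskers for SD. *Lbp* over *Tlr4* and *Tlr2* over *Tlr4* were higher in all 4 LPS-CPD-4645 mice than in any LPS-vehicle mouse.

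The rest of the pathway was read from lists of other genes. Beside the counts below, 4.68% of all genes tested passed as higher after LPS. Under CPD-4645, 1.7% passed as higher and 4.19% as lower. Of 9 other Toll-like receptors, 5 were tested, 4 rose after LPS and none passed under CPD-4645, with median log2 fold changes of 1.54 and -0.68. *Tlr6* (log2 fold change 2.82, SE 0.44) and *Tlr1* (2.65, SE 0.38), the partners of TLR2, had the largest changes of the 5. *Tlr1* went from 1.43 ± 1.21 to 9.35 ± 1.06 CPM and was at 5.84 ± 1.08 CPM under CPD-4645. Without sham-vehicle mouse 1 the change of *Tlr1* after LPS was 3.37. *Tlr1* was lower under CPD-4645 in every mouse, but did not pass (log2 -0.68, SE 0.34, edgeR adjusted p = 0.138). *Tlr6* changed by -0.90 under CPD-4645 (SE 0.39, edgeR adjusted p = 0.091). *Tlr6* passed there with limma-voom (-1.03) and when mouse 3 of LPS-vehicle (-1.05) or mouse 2 of LPS-CPD-4645 (-1.31) was left out. Both partner genes were below their LPS-vehicle means under CPD-4645, while the mean of *Tlr2* was above its own.

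**Figure D5:**
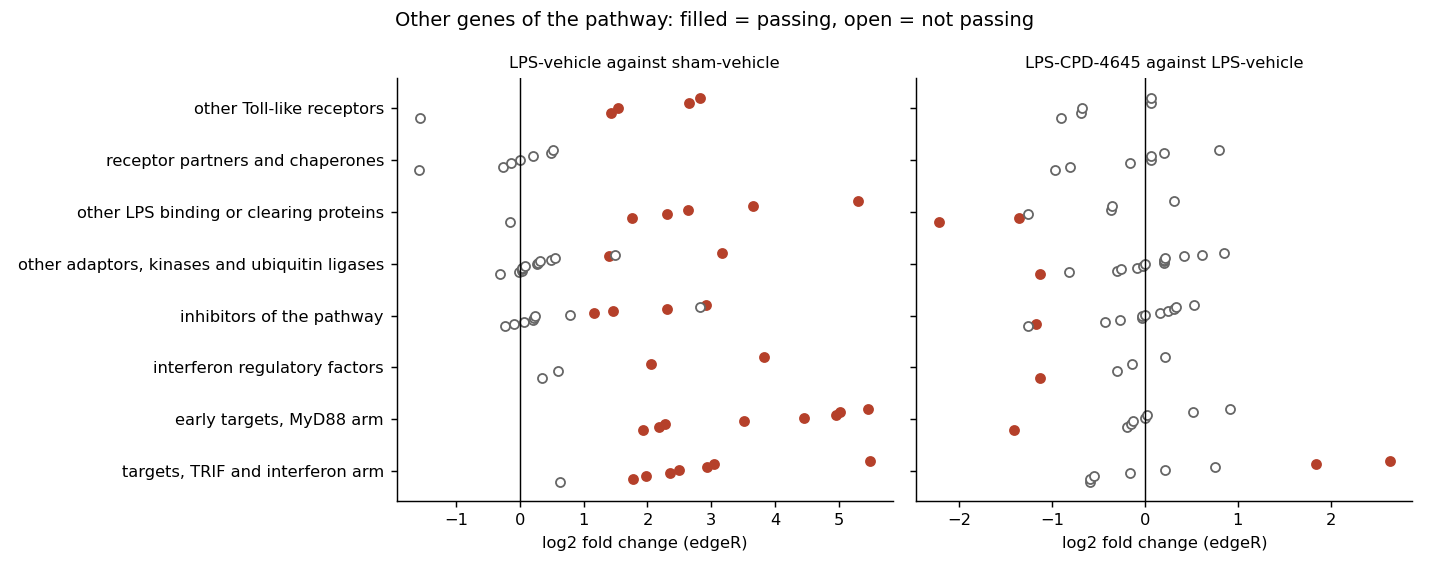
Log2 fold changes from edgeR (horizontal axis) of the tested genes in 8 other lists of the pathway (rows), after LPS (left) and under CPD-4645 given LPS (right). Filled points passed and open points did not: on the left all 8 targets of the MyD88 arm are filled, and on the right few genes are.

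None of the 7 receptor partners and chaperones passed in either direction, with a median log2 fold change of 0.00 after LPS and 0.06 under CPD-4645. *Cd180*, a relative of TLR4 on immune cells, was at 1.44 ± 0.716 CPM in sham-vehicle and 0.447 ± 0.508 CPM in LPS-vehicle mice (log2 -1.58, SE 0.67, edgeR adjusted p = 0.108), and it passed with limma-voom (-2.14), with mice of the same number blocked (-2.50) or without LPS-vehicle mouse 5 (-2.43). Its partner *Ly86* changed by 0.48 after LPS (SE 0.25, edgeR adjusted p = 0.191) and by -0.97 under CPD-4645 (SE 0.25, edgeR adjusted p = 0.00742), under 2-fold. *Ly86* passed there without LPS-vehicle mouse 2, 4 or 5 or LPS-CPD-4645 mouse 1 (-1.02 to -1.14), and without the 2 shallowest libraries (-1.12). The genes for proteins that fold or carry Toll-like receptors inside the cell did not pass either. Log2 fold changes after LPS and under CPD-4645 were 0.52 and -0.16 for *Unc93b1*, -0.14 and 0.06 for *Hsp90b1* and -0.26 and 0.20 for *Cnpy3*. *Cnpy4* changed by 0.20 after LPS (edgeR adjusted p = 0.372). Under CPD-4645 *Cnpy4* was lower than with LPS alone by less than 2-fold (log2 -0.81, SE 0.15, edgeR adjusted p = 0.000617). Its mean went from 14.8 ± 2.65 to 8.52 ± 0.497 CPM, without overlap. *Cnpy4* was also below the sham-vehicle mice without overlap (log2 -0.61, SE 0.15, edgeR adjusted p = 0.00446).

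Other LPS binding or clearing proteins gave 5 rises among 6 tested genes (median log2 fold change 2.47) and 2 falls under CPD-4645 (median -0.82). *Aoah*, an enzyme that removes acyl chains from LPS, went from 0.0627 ± 0.0815 to 3.14 ± 1.66 CPM (log2 5.30, SE 0.67, edgeR adjusted p = 1.46e-05). With *Aoah* this close to 0 in sham-vehicle mice, its size was loosely fixed, at log2 6.54 without sham-vehicle mouse 1 and at 4.93 without mouse 2. *Itgam*, a chain of the integrin CD11b/CD18 of myeloid cells, rose after LPS (log2 1.75) and fell from 30.9 ± 9.46 to 6.79 ± 2.72 CPM under CPD-4645 (log2 -2.22, SE 0.27, edgeR adjusted p = 1.78e-05). *Itgam* is also carried by neutrophils, whose marker sums are given above, and their part was not tested.

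Among the other adaptors, kinases and ubiquitin ligases, 2 of 14 tested genes rose after LPS (4.68% of all genes). Under CPD-4645, 1 fell (4.19% of all genes), and the medians were 0.27 and 0.10. By adjusted p alone, 3 were higher under CPD-4645 (14.1% of all genes) and 1 lower (16.4% of all genes). The higher ones were *Tab1* (log2 0.62), *Tab2* (0.42) and *Map3k7* (0.20), each without overlap. *Ikbke*, a kinase of the interferon arm, rose after LPS by 3.17 on the log2 scale (SE 0.36, edgeR adjusted p = 4.36e-06). The kinase *Irak4*, which starts signalling from MYD88, fell by 1.13 on the log2 scale under CPD-4645 (SE 0.29, edgeR adjusted p = 0.0072). *Irak4* was at 2.14 ± 0.812 CPM without LPS, 3.12 ± 0.492 CPM with it and 1.46 ± 0.417 CPM when CPD-4645 was added, the last without overlap with LPS-vehicle.

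Its partner kinase *Irak1* was at 44.7 ± 1.65, 54.3 ± 5.68 and 53.5 ± 3.16 CPM. The ubiquitin ligase *Traf6*, downstream of the IRAK proteins, was at 13.6 ± 0.301, 16.3 ± 2.29 and 18.9 ± 1.25 CPM. *Tirap*, which bridges MYD88 to TLR4 and TLR2, was at 3.67 ± 0.438, 5.11 ± 0.737 and 4.35 ± 1.77 CPM, and *Ticam2*, which bridges TRIF to TLR4, was too low to be tested. After LPS, *Irak1* (log2 fold change 0.28), *Traf6* (0.26) and *Tirap* (0.49) did not pass.

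Of the inhibitors, 4 of 12 tested genes rose after LPS (4.68% of all genes), with a median of 0.52, also with *Tnip3* at its lower bound. Under CPD-4645, 1 fell (4.19% of all genes), with a median of -0.02. *Zc3h12a*, which encodes an RNase that degrades cytokine transcripts, rose by 2.92 on the log2 scale (SE 0.34, edgeR adjusted p = 6.13e-06). Its mean was 10.2 ± 5.22 CPM with LPS alone and 9.87 ± 1.88 CPM under CPD-4645. *Sigirr*, a receptor that dampens interleukin-1 and Toll-like receptor signals, fell from 3.81 ± 1.83 to 1.77 ± 0.836 CPM under CPD-4645 (log2 -1.17, SE 0.40, edgeR adjusted p = 0.035), with overlap. That call was lost without LPS-vehicle mouse 2, 4 or 5 or LPS-CPD-4645 mouse 2 or 4 (-1.17 to -0.88), with mice of the same number blocked (-0.98, adjusted p = 0.123 by edgeR) and when the 2-fold change itself was tested (glmTreat). *Tollip*, an inhibitor that binds IRAK1, was at 175 ± 12.5, 204 ± 18.0 and 256 ± 20.7 CPM, and was higher under CPD-4645 than with LPS alone by 0.33 (SE 0.08, edgeR adjusted p = 0.00602).

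Of 4 interferon regulatory factors, 2 rose after LPS (median 1.32) and 1 fell under CPD-4645 (median -0.22). *Irf7*, which amplifies interferon production, rose by 3.82 on the log2 scale (SE 0.43, edgeR adjusted p = 4.36e-06). *Irf3*, the factor that TRIF activates, was at 21.9 ± 3.94 CPM in sham-vehicle and 27.6 ± 3.98 CPM in LPS-vehicle mice. Under CPD-4645 it was at 12.7 ± 1.73 CPM, below both other groups without overlap (log2 -1.13 against LPS-vehicle, SE 0.15, edgeR adjusted p = 3.14e-05).

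Early targets of the MyD88 arm rose in 8 of 8 cases after LPS (median 3.98), and 1 fell under CPD-4645 (median -0.06). The cytokine *Il6* went from 0.157 ± 0.121 to 7.06 ± 6.68 CPM (log2 5.46, SE 1.0, edgeR adjusted p = 0.000708; log2 4.85 without LPS-vehicle mouse 2) and was at 6.24 ± 5.56 CPM under CPD-4645. *Il1b*, which encodes interleukin-1β, fell under CPD-4645 from 11.3 ± 8.24 to 4.20 ± 2.29 CPM (log2 -1.41, SE 0.51, edgeR adjusted p = 0.0428), with overlap. The *Il1b* call was lost with limma-voom (-1.23), with DESeq2 (-1.41), with the 2 groups alone (-1.40), with glmTreat, without the 2 shallowest libraries (-1.28) and without LPS-vehicle mouse 2 or 3 or LPS-CPD-4645 mouse 2 or 3 (-1.23 to -1.05), and *Il6* did not pass after LPS with limma-voom (log2 5.06, adjusted p = 0.161).

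Targets of the TRIF and interferon arm rose in 7 of 8 tested cases after LPS (median 2.42). The interferon gene *Ifnb1*, also listed, was too low to be tested. It had 0 counts in every LPS-vehicle mouse, and means of 0.00996 CPM in sham-vehicle and 0.00981 CPM in LPS-CPD-4645 mice. Which signal raised the other targets was not tested. Under CPD-4645 none fell and 2 rose further (median 0.03). The chemokine *Ccl5* rose by 5.49 on the log2 scale after LPS (SE 0.64, edgeR adjusted p = 6.18e-06), but did not pass with limma-voom (log2 5.20, adjusted p = 0.0681), and the value was 6.29 without sham-vehicle mouse 1. *Cxcl10*, another chemokine induced by interferon, was at 4.11 ± 4.01, 36.3 ± 45.9 and 207 ± 152 CPM in the 3 groups, a rise of 2.64 (log2, SE 0.67, edgeR adjusted p = 0.0066) under CPD-4645, with overlap. The rise of *Cxcl10* was 3.69 without LPS-vehicle mouse 3 and 1.97 without LPS-CPD-4645 mouse 2, and it did not pass when the 2-fold change itself was tested (glmTreat, adjusted p = 0.332). The other gene that rose was *Rsad2*, which encodes the antiviral protein viperin. It went from 5.34 ± 2.65 to 19.3 ± 8.21 CPM under CPD-4645 without overlap (log2 1.84, SE 0.37, edgeR adjusted p = 0.00115) and passed without any one mouse (1.49 to 2.22), but not with glmTreat (adjusted p = 0.343).

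Across the 13 mice, the genes with the pattern most like each receptor gene were found by the root mean square difference of gene-centred log2 CPM. Nearest to *Tlr4* were *Adora3* (0.38), *Tyrobp* (0.39), which encodes a signalling adaptor of myeloid cells, and *Ccdc18* (0.46). *Cd14* was followed most closely by *Gpr84* (0.37), *Fpr2* (0.45) and *Hp* (0.46), where *Fpr2* is a formyl peptide receptor and *Hp* encodes haptoglobin. *Tlr2* lay nearest to *Maff* (0.37), *Steap4* (0.40) and *Mt2* (0.40), the last a metallothionein.

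For *Lbp* the nearest genes were *Cbr3* (0.28), *Zfp189* (0.29) and *Gm9768* (0.32). *Ly96* was nearest to *Il6ra* (0.32), *Adm* (0.32) and *Plce1* (0.33). *Tlr3* was nearest to *Nedd9* (0.13), *Cnn3* (0.18) and *Susd6* (0.21). Distances are to be read beside the spread of each gene around its own mean, which was 0.47 for *Tlr3*, 0.76 for *Ly96*, 0.79 for *Lbp*, 0.85 for *Tlr4*, 1.79 for *Tlr2* and 2.07 for *Cd14*. These distances describe 13 mice that share 3 group means, and they carry no test.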

How the data were processed

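RNA-seq of 13 neurovascular preparations, 1 per mouse, was analysed. The authors aligned single-end reads to mm10 with STAR 2.5.2a and counted them on the GENCODE M9 basic annotation, and the deposited values are whole-number counts per gene without normalization. The strand column kept is not given in the sources used here. Symbols and positions came from GENCODE M21 on the same build, and sequences from RefSeq.

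All 17285 genes kept by filterByExpr (minimum count 10, minimum total 15) were fitted with edgeR 4.0.16 (TMM, quasi-likelihood test, 3 groups, no covariates, all 13 mice), with limma-voom, the study's test, as an alternative. A gene passed when its change was 2-fold or more and its p, adjusted by Benjamini-Hochberg, did not exceed 0.05. The code was tested on simulated data. CPM used TMM-scaled totals (factors 0.908 to 1.08) and log2 CPM a prior count of 2. The members and lists were chosen with earlier results of these data known. Named beside the 10 members were, per list, the gene of largest passing change in the first 2 comparisons, 10 chosen genes whose products bind a member (*Tlr1*, *Tlr6*, *Tirap*, *Ticam2*, *Irak1*, *Irak4*, *Traf6*, *Tollip*, *Cd180* and *Ly86*, not all such genes), and the 3 nearest genes by likeness, and other names were picked after their values were seen. Replicates are separate mice, and no pair of libraries agreed within counting error (lowest chi-square per gene 9.26). The alternatives were limma-voom (limma 3.58.1), DESeq2 1.42.0, its size factors in edgeR, no filter, a mean count of at least 50, the 2 groups alone, glmTreat, a replicate block, a prior count of 0.5 for ratios (and, added later, none), and omission of the 2 shallowest libraries or of each mouse.

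Of the marker lists not described with the results, the lymphocyte list summed to at most 0.856 CPM and had no tested gene. After LPS, 1 astrocyte gene of 6 rose, 3 pericyte and smooth muscle genes of 8 fell, 1 oligodendrocyte gene of 6 fell, 1 choroid plexus gene of 6 fell, 2 endothelial genes of 8 rose and 2 fell. None of the 6 neuron, 6 fibroblast and 4 tested erythrocyte genes passed. Under CPD-4645, 1 pericyte and smooth muscle gene fell, 1 choroid plexus gene rose, 1 microglial gene rose and 1 fell, and no endothelial, astrocyte, neuron, oligodendrocyte, fibroblast or erythrocyte gene passed.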

Additional observations from a re-analysis of the deposited data

Results flagged for a closer look

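Of 30 combinations of a group and a member, 1 held a mouse far from the others by Dixon's criterion, which flags about 1 in 20 groups by chance: *Myd88* in LPS-CPD-4645 mouse 4, at 11 CPM, was below the other 3 mice of its group (13.3 to 13.6 CPM). The same mouse was lowest of its group for 6 of the 10 members.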

How the results depend on the processing

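The 2 shallowest libraries and the few counts of *Tlr4* and *Ly96* limit what could be seen. After LPS 4 members passed with the replicate block, in which mice of the same number were blocked, 1 passed under CPD-4645 and 6 in LPS-CPD-4645 against sham-vehicle, and among the members the block changed the call of *Lbp* after LPS alone (log2 0.95). Of the other named genes, *Cd180* passed after LPS with the block (-2.50) and *Sigirr* was lost under CPD-4645 (-0.98). The numbers did not pair the mice (correlations of same-numbered mice from -0.0346 to 0.114). Leaving out each mouse gave 4 to 6, 0 to 1 and 5 to 6 passing members in the 3 comparisons. When the 2-fold change itself was tested (glmTreat), 0 members passed under CPD-4645, *Lbp* was lost after LPS and *Ly96* and *Myd88* were lost in LPS-CPD-4645 against sham-vehicle. The calls of *Irak4*, *Irf3*, *Sigirr*, *Il1b*, *Cxcl10* and *Rsad2* under CPD-4645 were lost with glmTreat too. With no prior count, 2 ratios passed after LPS. For the ratios, leaving out each mouse gave 0 to 4 passing after LPS and 0 to 3 under CPD-4645. Without the 2 shallowest libraries 0 ratios passed in either comparison, where the smallest possible p is 0.0286, so the adjusted threshold could hardly be met. Near-zero changes that were not called turned sign. *Ly96* under CPD-4645 was -0.07 with limma-voom, -0.02 with the replicate block, -0.27 without the 2 shallowest libraries and -0.26 to 0.32 without 1 mouse. Without 1 mouse *Tlr3* under CPD-4645 was -0.21 to 0.22. Against sham-vehicle, *Tlr4* under CPD-4645 was -0.29 to 0.35 without 1 mouse, and *Ticam1* was -0.08 to 0.14, with -0.04 by limma-voom and -0.09 without the shallowest libraries. The call of *Ly96* against sham-vehicle was lost in 10 settings, among them limma-voom (1.29). The causes were not tested. Of the 1200 alternative values of single genes, 1136 kept direction and call.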
